A study of Mus musculus with 2 samples.

Results

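The population described here was made of regulatory T cells (Tregs) from mouse spleen in which transcripts of the chemokine receptor gene Ccr2 and of the calcium-binding protein gene S100a4 were detected, and none of Il1rl1, the gene of the IL-33 receptor ST2, or of Sostdc1, a gene of follicular regulatory cells. Cells were kept when at least 500 genes were detected, at most 10% of their UMIs (unique molecular identifiers, each standing for 1 captured transcript) were mitochondrial, and no UMI of the B cell gene Cd79a was present. Among the kept cells, a member had at least 1 UMI of Ccr2, at least 1 of S100a4 and 0 of Il1rl1 and Sostdc1. This held for 469 of 12953 kept cells, 354 of 6902 in the CD25KO library and 115 of 6051 in the CD25WT library. The members were thus chosen by the measured UMIs of these genes, and every value set against other cells below is a description.

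The series asked how signalling through the IL-2 receptor, whose alpha chain CD25 is encoded by Il2ra, shapes the make-up of the Treg pool. CD25KO mice had the genotype CD25FL/FL-tdTomato+/+-Foxp3eGFPCretERT2+/+, and CD25WT mice had the genotype CD25WT/WT-tdTomato+/+-Foxp3eGFPCretERT2+/+. Both groups therefore carried the tdTomato reporter and the tamoxifen-activated Cre under Foxp3, which restricts the deletion to cells that express Foxp3, and tamoxifen (2 mg/kg, intraperitoneal, 5 days) was given to both. Each library pooled 2 spleens collected on day 10 after induction, from which live CD4+ GFP+ tdTomato+ cells were sorted. The CD25KO cells were in addition gated as CD25lo, so the genotype and this gate cannot be told apart. With 1 library per group there is no replicate and no test: levels are sums of UMIs per 1000000 (CPM) with exact Poisson counting intervals, shares carry exact binomial (Clopper-Pearson) intervals, and both 95% intervals cover counting error only. Beside a share of 0 stands the share that 3 counts would make of the total.

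Tregs restrain immune responses under the control of the transcription factor Foxp3. In lymphoid organs, resting or central Tregs express lymph node homing receptors and the quiescence factors Tcf7 and Bcl2, whereas effector Tregs lose these and gain receptors for inflamed or barrier tissue, integrins, S100 proteins and galectins. CCR2 binds CCL2 and related chemokines and is best known for the movement of monocytes and activated T cells into inflamed tissue. S100A4 and S100A6 are small calcium-binding proteins linked to the cytoskeleton and to cell motility, and ST2 marks a separate, tissue-type branch of effector Tregs.

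Before the rule was applied, the libraries held 7530 CD25KO and 6620 CD25WT barcodes with 36986849 and 36971834 UMIs. Members were deeper than the other kept cells, with a median of 6325 UMIs per member against 4084.5 in other CD25KO cells, and of 6529 against 5216.5 UMIs in CD25WT. A deeper cell is more likely to show a Ccr2 UMI, so shares were also taken after each cell was thinned to 2000 UMIs. Of the barcodes, 107 occurred in both libraries, 26 were kept in both, and 1 CD25KO member shared its barcode with a kept CD25WT cell. Il2ra itself stood at 28.7 CPM in CD25KO members against 70.4 CPM in CD25WT members, and at 32.6 against 126 CPM in the other kept cells. The deleted exons are not given in the sources used here, so whether the counted 3′ tags lie inside the deleted stretch is unknown, and the CD25lo gate was set on the protein of the same gene.

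The S100a4 and S100a6 genes lie in the S100 gene cluster, 6836 bases apart on chromosome 3 (GRCm38, chr3:90603771-90606045 and chr3:90612882-90624181, both on the + strand), and the 250 bases before each RefSeq start (GRCm38.p6) are shown because both genes were among the highest in members. Capitals mark a match to any of the searched motifs, on either strand: TTCNNNGAA, the core bound by STAT5, the factor downstream of the IL-2 receptor; TGANTCA, bound by AP-1; and AGGTCA, the nuclear receptor half-site.
S100a4: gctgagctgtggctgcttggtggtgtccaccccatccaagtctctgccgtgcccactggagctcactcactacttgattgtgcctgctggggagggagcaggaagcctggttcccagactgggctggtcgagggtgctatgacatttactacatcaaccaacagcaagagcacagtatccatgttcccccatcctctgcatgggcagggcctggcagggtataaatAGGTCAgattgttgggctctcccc
S100a6: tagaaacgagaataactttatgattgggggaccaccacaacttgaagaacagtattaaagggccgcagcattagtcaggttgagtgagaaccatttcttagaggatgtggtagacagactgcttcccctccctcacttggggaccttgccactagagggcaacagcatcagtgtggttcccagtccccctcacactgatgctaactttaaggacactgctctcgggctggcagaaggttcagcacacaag
The S100a4 window at chr3:90603520-90603769 held 1 match, the half-site at -24, and the S100a6 window at chr3:90612644-90612893 held none. Over 32851 RefSeq promoter windows of this length, 14% held the half-site, 7.02% the STAT5 core and 6.75% the AP-1 motif.

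Members made up 5.13% of kept CD25KO cells (95% interval 4.62 to 5.68) and 1.90% of kept CD25WT cells (1.57 to 2.28), a ratio of 2.70. At 2000 UMIs per cell the shares were 3.60% (3.16 to 4.08) and 1.36% (1.08 to 1.69), after 372 CD25KO and 88 CD25WT kept cells that were too shallow had been left out. The S100a4 criterion carried most of this gap: S100a4 was detected in 25% of kept CD25KO cells and in 8.51% of kept CD25WT cells. Among cells with an S100a4 UMI, Ccr2 was detected in 29.4% in CD25KO and 28.7% in CD25WT, and after thinning in 21.9% and 23.8%. Without an S100a4 UMI, Ccr2 was found in 1.31% of CD25KO and 0.343% of CD25WT cells. Thus within the S100a4 compartment the libraries had nearly the same share of Ccr2 cells.

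**Figure D1:**
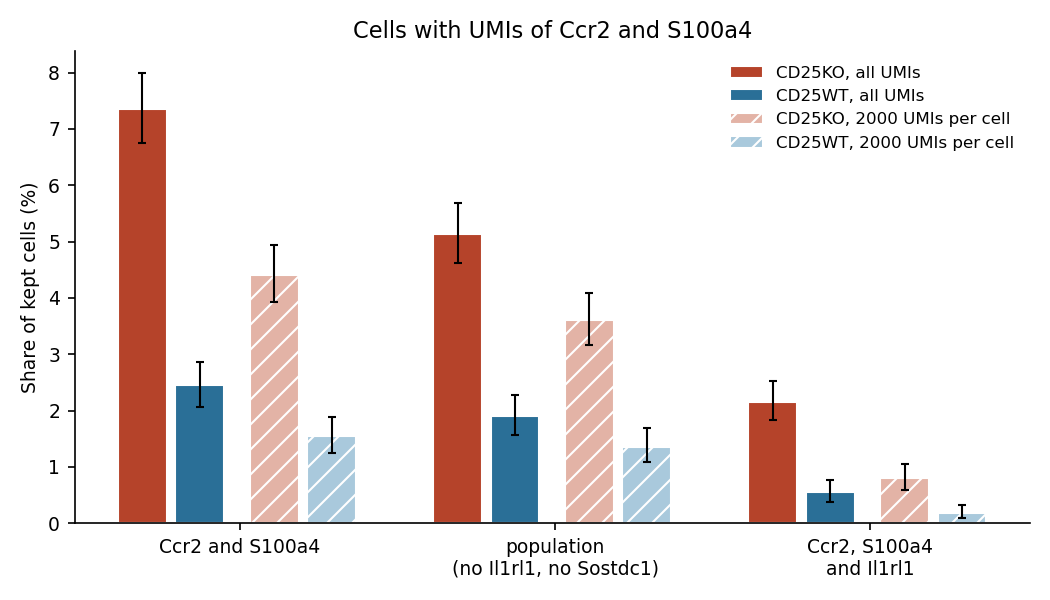
Share of kept cells (%, y axis) with UMIs of Ccr2 and S100a4, in the population, and with Ccr2, S100a4 and Il1rl1, in the CD25KO and CD25WT libraries, from all UMIs (solid) and at 2000 UMIs per cell (hatched), with 95% binomial intervals. The CD25KO bars are above the CD25WT bars in every pair, for the population at 5.13% against 1.90%.

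The Il1rl1 criterion removed more cells than the Sostdc1 criterion. Of the 507 CD25KO cells with both Ccr2 and S100a4, 149 (29.4%) had an Il1rl1 UMI, as did 33 of 148 (22.3%) in CD25WT, against 3.11% and 0.932% of the cells without both. Detection of Il1rl1 depended on depth: at 2000 UMIs per cell its share among the cells with Ccr2 and S100a4 was 18.1% in CD25KO and 12% in CD25WT, and 42 of 235 thinned CD25KO members and 9 of 81 thinned CD25WT members had an Il1rl1 UMI at full depth. Having no Il1rl1 UMI therefore does not show that a member lacked ST2. Sostdc1 went the other way, in 4 of 507 such cells in CD25KO (0.789%) and 0 of 148 in CD25WT (which allows a share of up to 2.03%), against 6.38% and 2.37% of the cells without both. B cells carried along in the sort, with a Cd79a UMI and no Cd3e UMI, had Ccr2 and S100a4 in 0 of 23 CD25KO and 0 of 22 CD25WT cells, which allows shares of up to 13% and 13.6%. Members usually had few Ccr2 and many S100a4 UMIs: the medians were 2 and 3 for Ccr2 (highest 20 and 19) and 13 and 17 for S100a4 (highest 159 and 96) in CD25KO and CD25WT members.

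Just inside the threshold stood 118 CD25KO members (33.3%) and 36 CD25WT members (31.3%) with exactly 1 Ccr2 UMI. These 1-UMI members had 2763 CPM of S100a4, 3536 CPM of S100a6 and 359 CPM of Lgals3 in CD25KO. Cells just outside, with an S100a4 UMI but 0 Ccr2 UMIs, had 1357, 1897 and 106 CPM of the same genes in CD25KO (1075 cells). In CD25WT, the 1-UMI members had 2767 CPM of S100a4, 1837 CPM of S100a6 and 115 CPM of Lgals3, against 920, 970 and 42.0 CPM in the 340 cells just outside.

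The members carried T cell transcripts throughout. The 10 T cell genes summed to 8017 CPM in CD25KO members against 8799 CPM in other CD25KO cells, and to 6253 against 7078 CPM in CD25WT, with a UMI of at least 1 of them in 354 of 354 and 115 of 115 members. Foxp3 was sparse in these libraries, at 27.5 CPM in CD25KO members against 21.3 CPM in other CD25KO cells and at 31.6 against 34.3 CPM in CD25WT, while the sort on the Foxp3-driven GFP had selected all cells. Monocytes also express Ccr2, and the 12 monocyte and macrophage genes summed to 202 CPM in CD25KO members against 196 CPM in other cells, and to 252 against 162 CPM in CD25WT. Cst3, which encodes the protease inhibitor cystatin C, gave most of that sum (166 and 222 CPM in members). Of the 12 genes, 9 had a UMI in CD25KO members and 5 in CD25WT members. Cd14, Adgre1 and Spi1 were at 0 in members of both libraries. The natural killer and innate lymphoid genes summed to 12.1 and 13.4 CPM in members against 14.9 and 12 CPM in other cells. Of these 9 genes, 5 had a UMI in CD25KO members and 3 in CD25WT members. Ncr1, Klra8 and Eomes were at 0 in members, and Klra8 was also at 0 in the other cells. The erythroid and platelet genes summed to 70.0 CPM in CD25KO members against 2552 CPM in other CD25KO cells, and to 132 against 4440 CPM in CD25WT. Only the 4 haemoglobin genes among them reached a mean of 50 CPM, and these were lower in members of both libraries. Of the proposed markers, S100a6, Lgals3 and Ccr10 were higher in members of both libraries, whereas Ifitm1 rested on 30 CD25KO members and 1 CD25WT member. Ccr10 was detected in a minority of members. The Ccr2, S100a4 and Il1rl1 values of members are set by the rule and say nothing on the label, and the files hold no measurement of ST2 protein.

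Against all other kept cells, 81 of 2664 measured genes (3.04%) were at least 2-fold higher in CD25KO members and 43 (1.61%) at least 2-fold lower, where measured means an average of at least 50 CPM over both sides. In CD25WT, 164 of 2452 genes (6.69%) were higher and 50 (2.04%) lower. In both libraries at once, 57 of 2357 genes (2.42%) were higher and 21 (0.891%) lower. Members spent a smaller share of their UMIs on ribosomal protein genes, 25.8% against 31.4% in other cells of CD25KO and 29.1% against 39.6% in CD25WT. Of the 2-fold calls, 65.3% were higher in CD25KO and 76.6% in CD25WT, but 46.1% and 54.8% when the total left out ribosomal protein and mitochondrial genes, 69.6% and 65.6% with median-of-ratios factors, and 66.4% and 60.8% with TMM factors. The median log2 ratio of all measured genes was 0.06 in CD25KO and 0.22 in CD25WT, and the ratios below are best read against it.

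The S100, annexin and galectin genes were higher as a group. In CD25KO, 8 of the 9 measured genes of this 11-gene list were at least 1.5-fold higher in members and 0 lower (median log2 ratio 1.39), where 8.82% of all measured genes were that much higher and 4.65% lower. In CD25WT 9 of 9 measured genes of the list were higher (median 2.64), where 19.4% of all measured genes were higher and 5.06% lower. Lgals3, encoding galectin-3 (chr14:47367751-47386160), reached 373 CPM in CD25KO members against 47.8 CPM in other cells, a log2 ratio of 2.97 (2.85 to 3.08), and 245 against 6.66 CPM in CD25WT, 5.20 (4.92 to 5.48). S100a6 reached 4158 CPM in CD25KO members against 783 CPM in other cells (2.41, 2.38 to 2.44) and 2890 against 137 CPM in CD25WT (4.40, 4.33 to 4.47). S100a6 was found in 92.7% of CD25KO members and 87.8% of CD25WT members, although the rule did not name it. It was also found in 35.7% of other CD25KO cells and 12.95% of other CD25WT cells, so it was not specific to members. These shares were not matched for depth. Lgals1, encoding galectin-1, had 3454 CPM in CD25KO members against 698 CPM (2.31) and 3173 against 259 CPM in CD25WT (3.61). S100a10, whose product pairs with annexin A2, had 3943 CPM in CD25KO members against 1336 CPM (1.56) and 3962 against 636 CPM in CD25WT (2.64). Its partner Anxa2 had 313 against 120 CPM in CD25KO (1.39) and 234 against 36.8 CPM in CD25WT (2.67). The levels of these genes differed less between the members of the libraries than between their other cells, and the larger CD25WT ratios went with lower levels in the other CD25WT cells. Lgals3 in both libraries, and Anxa2 in CD25WT, reached the mean of 50 CPM only through their member level. That minimum favoured their place in the list counts above. Of the 50-base stretches in the last 500 bases of S100a4 transcripts, 47.4% also occur in another annotated gene model. The S100a4 counts are therefore uncertain to an extent that was not measured.

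Genes of the cytoskeleton and of cell shape were higher with them. In CD25KO, 13 of 15 measured genes of the 16-gene list were at least 1.5-fold higher (median 1.18) and in CD25WT 12 of 14 (median 1.19), with 0 lower in either. The shares of all measured genes that were higher were 8.82% in CD25KO and 19.4% in CD25WT. Crip1, a small LIM-domain protein, stood at 4814 CPM in CD25KO members against 1148 CPM (2.07) and at 5015 against 844 CPM in CD25WT (2.57). Vim, the intermediate filament vimentin, had 1600 against 379 CPM in CD25KO (2.08) and 2065 against 280 CPM in CD25WT (2.89). Tagln2, Ahnak and Emp3 were among the other list members counted as higher in both libraries.

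**Figure D2:**
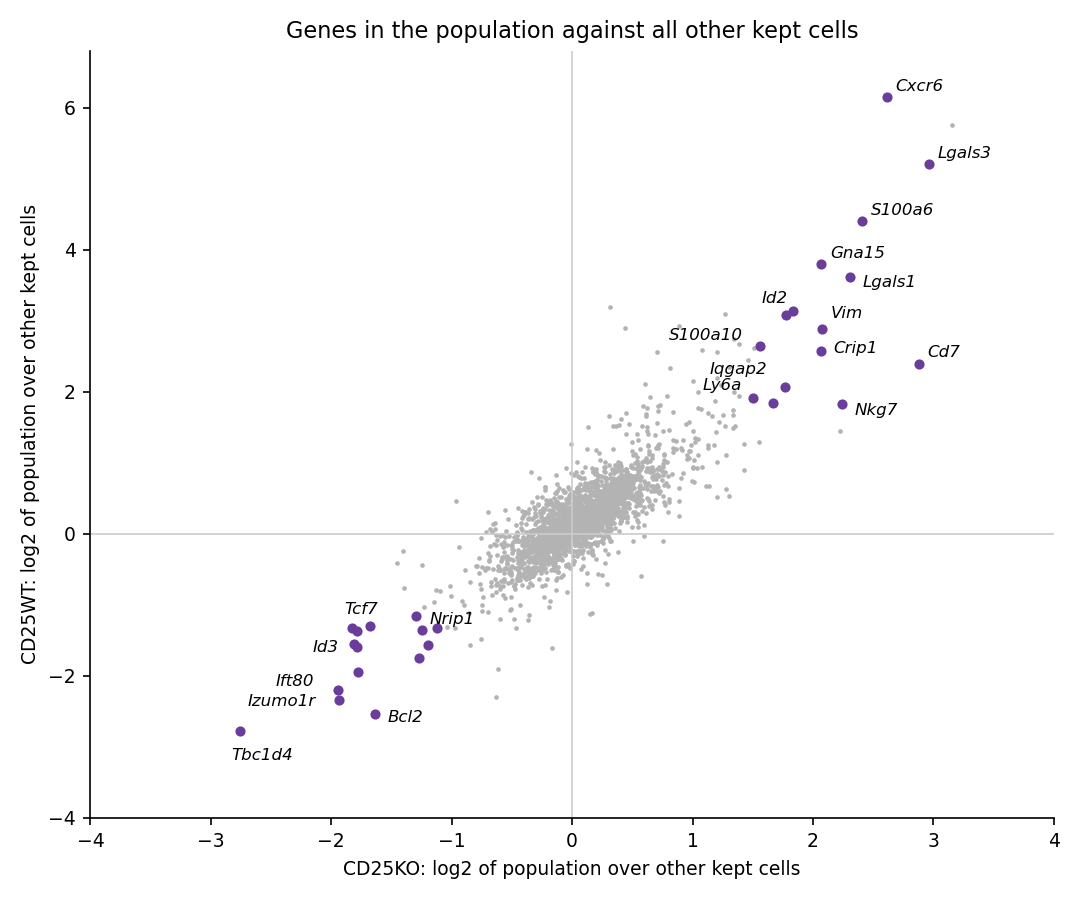
Log2 ratio of the population over all other kept cells in CD25KO (x axis) and CD25WT (y axis) for the 2357 genes measured in both libraries, with the 15 named genes in each direction in purple. Lgals3, Cxcr6 and S100a6 are at the upper right and Tbc1d4 at the lower left; the 4 haemoglobin genes, at log2 ratios below -4, lie outside the axes.

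Receptors for tissue homing were higher in part. Cxcr6, the receptor for the membrane-bound chemokine CXCL16 (chr9:123806475-123811760, 290189 bases from Ccr2), had 178 CPM in CD25KO members against 29.1 CPM (log2 ratio 2.61, 2.45 to 2.78) and 199 against 2.80 CPM in CD25WT (6.15, 5.78 to 6.53). It was detected in 44.4% of CD25KO members and 49.6% of CD25WT members, against 6.60% and 1.11% of other cells, and at 2000 UMIs in 27.2% of members of either library. Ccr10, a receptor for skin and mucosal chemokines, was detected in 42 CD25KO members (11.9%, 8.69 to 15.7) and 19 CD25WT members (16.5%, 10.3 to 24.6), against 0.809% and 0.590% of other cells. Cxcr3, the receptor of interferon-induced chemokines on Th1-type cells, had 196 CPM in CD25KO members against 89.9 CPM (1.13) and 71.6 against 30.1 CPM in CD25WT (1.25). Ccr8, a tissue Treg receptor, had a UMI in 1 CD25KO and 0 CD25WT members, and was thus hardly detected. In the 19-gene list of chemokine and egress receptors, CD25KO members had 4 of 6 measured genes at least 1.5-fold higher and CD25WT members 4 of 8, with 1 lower in each, Cxcr4 in CD25KO and Ccr7 in CD25WT. Beside this, 8.82% of all measured genes were higher and 4.65% lower in CD25KO, and 19.4% and 5.06% in CD25WT. Cxcr6 in both libraries, and Ccr6 in CD25WT, reached the mean of 50 CPM only through their member level. That minimum favoured their place in these counts.

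Integrin chains were higher in part. Itgb1, the beta-1 chain, had 943 CPM in CD25KO members against 409 CPM (1.21) and 648 against 141 CPM in CD25WT (2.20). Itgb7, a chain of the gut-homing integrins, had 462 against 199 CPM in CD25KO (1.22) and 597 against 200 CPM in CD25WT (1.58). Itgae, which encodes the alpha chain CD103 that pairs with the beta-7 chain at epithelia, was detected in 23.2% of CD25KO and 27.0% of CD25WT members against 5.39% and 2.36% of other cells. Of the 17 adhesion genes, the CD25KO members had 3 of 9 measured genes at least 1.5-fold higher and 0 lower, and the CD25WT members 4 of 10 higher and 3 lower, so the list as a whole did not move one way (medians 0.13 and 0.01). For all measured genes the shares were 8.82% higher and 4.65% lower in CD25KO, and 19.4% and 5.06% in CD25WT.

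Ccr7, the receptor that guides T cells into lymph nodes, was low in members of both libraries. It was detected in 4.80% of CD25KO members and 12.2% of CD25WT members, against 19.5% and 43.7% of other cells.

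**Figure D3:**
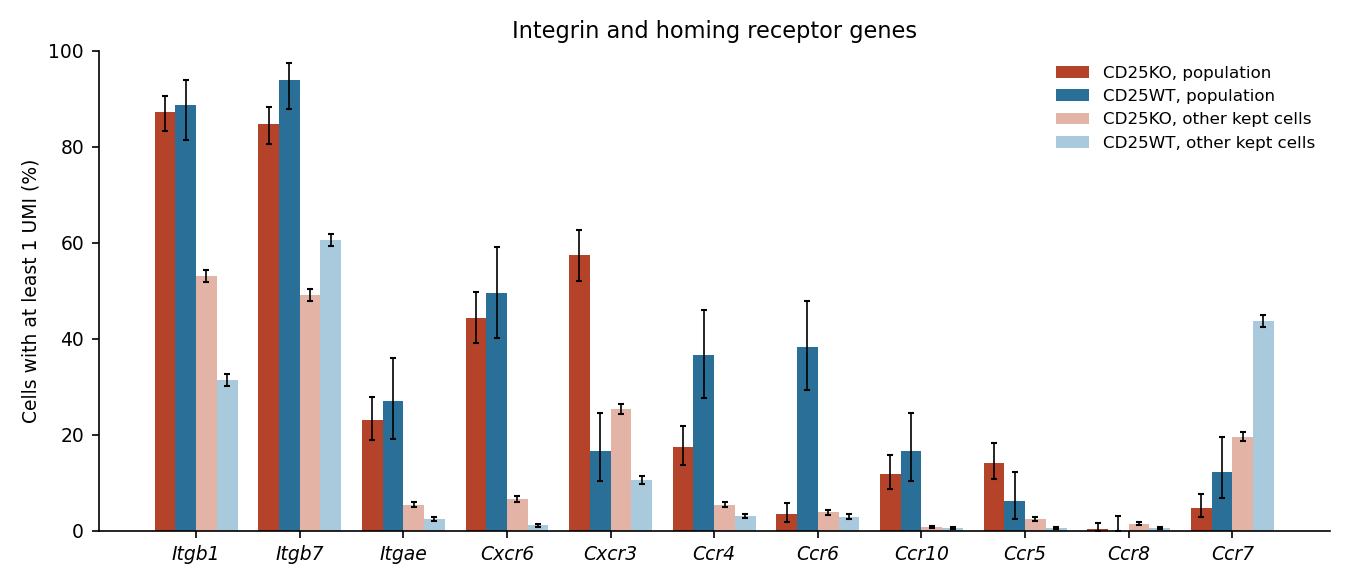
Share of cells with at least 1 UMI (%, y axis) of integrin and homing receptor genes in the CD25KO and CD25WT population (dark) and in other kept cells of the same libraries (pale), with 95% binomial intervals. Cxcr6, Itgae and Ccr10 are higher in the population of both libraries, Ccr6 and Ccr4 are highest in CD25WT members, Cxcr3 is highest in CD25KO members, and Ccr7 is lower in the population.

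Among transcription factors of effector Tregs, Id2, an inhibitor of E proteins, had 703 CPM in CD25KO members against 197 CPM in other cells (1.84, 1.76 to 1.91) and 624 against 71.0 CPM in CD25WT (3.14, 3.0 to 3.27). Rora, a nuclear receptor of type 2 and tissue-type lymphocytes, had 188 against 77.7 CPM in CD25KO (1.27) and 214 against 25 CPM in CD25WT (3.10). Gata3 had 214 CPM in CD25KO members against 151 CPM (0.50) and 157 against 72.5 CPM in CD25WT (1.11), although cells with a UMI of Il1rl1, which often accompanies Gata3 in Tregs, were left out. In the 17-gene list, CD25KO members had 4 of 9 measured genes at least 1.5-fold higher and CD25WT members 6 of 8, with 0 and 1 lower. Over all measured genes, 8.82% were higher and 4.65% lower in CD25KO, and 19.4% and 5.06% in CD25WT. Il18r1, a chain of the IL-18 receptor, had 238 CPM in CD25KO members against 69.7 CPM (1.77) and 278 against 32.9 CPM in CD25WT (3.08). Cd7, a surface glycoprotein of T cells, had 213 against 28.9 CPM in CD25KO (2.88) and 92.2 against 17.5 CPM in CD25WT (2.39). Gna15, a G protein alpha subunit, had 138 CPM in CD25KO members against 32.9 CPM (2.07) and 130 against 9.34 CPM in CD25WT (3.80). Iqgap2, Glipr2, Nkg7 and Ly6a completed the 15 named genes that were highest in both libraries.

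The quiescence genes Tcf7, Bcl2 and Id3 were lower in members of both libraries. Tcf7 had 74.5 CPM in CD25KO members against 257 CPM in other cells (-1.79, -2.0 to -1.57) and 78.9 against 204 CPM in CD25WT (-1.37, -1.75 to -1.02). Bcl2, which protects from cell death, had 57.5 against 179 CPM in CD25KO (-1.64) and 75.2 against 436 CPM in CD25WT (-2.54). Id3, an E protein inhibitor of resting and follicular Tregs, had 49.8 against 175 CPM in CD25KO (-1.81) and 58.2 against 171 CPM in CD25WT (-1.55). Klf2, a factor that maintains egress receptors and is counted in the same list, went the other way, with 746 CPM in CD25KO members against 354 CPM (1.07) and 1035 against 540 CPM in CD25WT (0.94). Of the 10 measured members of this 13-gene list, 4 lay at least 1.5-fold below the other CD25KO cells and 2 above (median -0.26), where 4.65% of all measured genes were lower and 8.82% higher. In CD25WT 9 of 12 were lower and 2 higher, where 5.06% of all were lower and 19.4% higher.

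Of the 15 named genes that were lower in both libraries, Tbc1d4, a regulator of vesicle traffic, had the largest deficit in each, with 43.3 CPM in CD25KO members against 293 CPM in other cells (-2.76, -3.05 to -2.49) and 25.5 against 175 CPM in CD25WT (-2.78, -3.47 to -2.17). Izumo1r, which encodes folate receptor 4, a surface protein of Tregs and follicular cells, had 196 against 749 CPM in CD25KO (-1.94) and 102 against 517 CPM in CD25WT (-2.34). Tnfsf8, the CD30 ligand, had 64.4 against 206 CPM in CD25KO (-1.68) and 54.6 against 135 CPM in CD25WT (-1.30). The follicular list held no measured gene that was at least 1.5-fold higher. In it 3 of 4 were lower in CD25KO and 2 of 3 in CD25WT, where 4.65% and 5.06% of all measured genes were. The rule had already removed cells with Sostdc1. Ift80, Bmyc, Nrip1, Asap1, Sdhaf1, Cd9, Rgs10, Sesn3 and Ssbp2 were the other named genes that were lower in both libraries.

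Genes of the Treg core did not separate members from other cells in 1 direction. Of the 14-gene identity list, 2 of 9 measured genes were at least 1.5-fold higher in CD25KO (Capg and Icos) and 3 lower (Ikzf4, Tnfrsf4 and Izumo1r), and in CD25WT 2 of 8 were higher and 3 lower. Ctla4, the inhibitory receptor, had 162 CPM in CD25KO members against 150 CPM (0.11) and 127 against 119 CPM in CD25WT (0.10). Among IL-2 receptor and STAT5 genes, 1 of 9 measured was at least 1.5-fold higher in CD25KO (Pim1) and 2 lower, and 2 of 12 were higher in CD25WT (Socs2 and Pim1) and 4 lower, beside 8.82% higher and 4.65% lower of all measured genes in CD25KO and 19.4% and 5.06% in CD25WT. Penk, the enkephalin precursor, had 19.4 CPM in CD25KO members against 95.6 CPM (-2.30) and 21.8 against 22.9 CPM in CD25WT. Its level was thus alike in members of both libraries and high in other CD25KO cells.

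Cycling cells were present among members. A UMI of Mki67 or Top2a was found in 24.9% of CD25KO members and 25.2% of CD25WT members, against 13% and 6.05% of other cells. Mki67, a protein of dividing cells, had 113 CPM in CD25KO members against 60.7 CPM (0.89) and 135 against 17.8 CPM in CD25WT (2.92). The median of the cell cycle list, 0.89 in CD25KO and 1.13 in CD25WT, was -0.02 and -0.25 once cells with a UMI of either gene were left out, and -0.16 in CD25WT without the 5% of cells with the most UMIs.

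Set beside cells that met the same rule but carried an Il1rl1 UMI, the CD25KO population differed by at least 2-fold in 3 of 2686 measured genes. The higher ones (0.0745%) were Ccl5, with 967 CPM in members against 241 CPM in the 149 cells with Il1rl1 (log2 ratio 2.0), and Serpina3g, a protease inhibitor gene, with 133 against 62.5 CPM (1.09). The lower one (0.0372%) was Cysltr1, a leukotriene receptor gene, with 40.9 against 83.0 CPM (-1.02). Of the counting intervals, 86.4% held 0. In CD25WT, with 33 such cells, 47 of 2609 genes (1.80%) were higher and 57 (2.18%) lower, and 88.4% of the intervals held 0. There Ccl5 was on the other side, with 95.9 CPM in members against 283 CPM (-1.56), and 57 of its 79 UMIs in members came from 1 cell, while Serpinb1a, a protease inhibitor of Th17-type cells, had 130 against 18.9 CPM (2.78). Genes named against neighbouring cells were picked after their values had been seen.

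Cells with an S100a4 UMI and none of Ccr2, Il1rl1 or Sostdc1 were also close. In CD25KO, 20 of 2672 genes (0.749%) were at least 2-fold higher in members and 15 (0.561%) lower, and in CD25WT 49 of 2561 (1.91%) were higher and 33 (1.29%) lower. Gzmb, encoding granzyme B, had 276 CPM in CD25KO members against 50.9 CPM in these cells (2.44), and Cd7 had 213 against 52.8 CPM (2.02). Cxcr6 had 199 CPM in CD25WT members against 14 CPM (3.83). Tbc1d4 was lower in members of both libraries, at 43.3 against 173 CPM in CD25KO (-2.0), and by 2.76 on the log2 scale in CD25WT. In each library, members had more Cxcr6 and Lgals3 and less Tbc1d4 and Tcf7 than these cells.

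Cells with a Sostdc1 UMI were farther away. Here 138 of 2775 genes (4.97%) were at least 2-fold higher in CD25KO members and 132 (4.76%) lower, and in CD25WT 169 of 2716 (6.22%) were higher and 204 (7.51%) lower. Tbc1d4 had 43.3 CPM in CD25KO members against 837 CPM in the 412 Sostdc1 cells (-4.27) and 25.5 against 872 CPM in the 140 CD25WT ones (-5.10). Pdcd1, encoding the inhibitory receptor PD-1, had 10.9 CPM in CD25WT members against 324 CPM (-4.89). Gzmb had 276 CPM in CD25KO members against 1.65 CPM (7.38).

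Between the genotypes, 44 of 2616 measured genes (1.68%) were at least 2-fold higher in CD25KO than in CD25WT members and 24 (0.917%) lower. In the other kept cells 67 of 2488 genes (2.69%) were higher in CD25KO and 13 (0.523%) lower. Of the 2-fold calls in members, 64.7% were higher, and 52.7% when the total left out ribosomal protein and mitochondrial genes. Of the 15 named genes highest in members of both libraries, 13 differed by 0.61 or less on the log2 scale between CD25KO and CD25WT members, whereas Nkg7 (2.27) and Cd7 (1.21) were higher in CD25KO members. These 15 were chosen as high in members of both libraries, which favours genes that are alike between them, so the count is a description only. Among 9 measured S100, annexin and galectin genes, 1 was at least 1.5-fold higher in CD25KO members (Lgals3, 0.61) and 0 lower, with a median of 0.15, where 6.35% of all measured genes were that much higher and 2.91% lower. In other cells, 6 of 8 were higher in CD25KO (median 1.25), where 8.20% of all measured genes were higher and 1.57% lower. Of the cytoskeletal genes 0 of 16 were higher and 1 lower, Lmna, with a median of -0.03. S100a10 differed by -0.01 (-0.06 to 0.05) and Cxcr6 by -0.16 (-0.42 to 0.11) on the log2 scale.

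The cytotoxic genes Ccl5, Gzmb and Nkg7, which were the 3 measured of an 11-gene list, were all at least 1.5-fold higher in CD25KO members, where 6.35% of all measured genes were. Gzmb reached the mean of 50 CPM only through its CD25KO level, so that minimum favoured its place in this count. Ccl5, a chemokine of cytotoxic and memory T cells, had 967 CPM in CD25KO members against 95.9 CPM in CD25WT members, a log2 ratio of 3.33 (3.01 to 3.68), and in other cells the ratio was 2.56. It was found in 101 CD25KO members (28.5%, 23.9 to 33.5) and 7 CD25WT members (6.09%, 2.48 to 12.1), and 54.3% of its CD25KO UMIs came from 10 members. In CD25WT, 57 of its 79 UMIs came from 1 member. Gzmb had 276 against 21.8 CPM (3.66, 2.99 to 4.42), with UMIs in 112 CD25KO members (31.6%, 26.8 to 36.8) and 9 CD25WT members (7.83%, 3.64 to 14.3). At 2000 UMIs per cell these shares were 24.7% and 3.70%. Nkg7, a granule membrane protein, had 523 against 108 CPM (2.27, 1.96 to 2.60). A UMI of Gzmb, Ccl5 or Nkg7 was present in 62.4% of CD25KO members and 19.1% of CD25WT members, against 18.9% and 7.36% of other cells. CD8 T cells also use these genes: the CD8 list summed to 1516 CPM in CD25KO members and 208 CPM in CD25WT members, mainly through Ccl5 and Nkg7, while Eomes was at 0 in both and Cd8a was at 0 in CD25WT members. Without cells that carried a Cd8a, Cd8b1, B cell or myeloid marker UMI, the CD25KO over CD25WT ratios in members were 3.35 for Ccl5, 3.51 for Gzmb and 2.11 for Nkg7. Without the member with the most UMIs of the gene in each library, an alternative chosen after the data had been seen, Ccl5 had 827 against 26.8 CPM (4.95), Gzmb 262 against 9.79 CPM (4.74) and Nkg7 507 against 69.3 CPM (2.87). Ccl5 in CD25WT members was then on the lower side of other CD25WT cells, at a log2 ratio of -0.39 against 1.45 with that member. The single CD25WT member thus made the CD25KO over CD25WT ratio of Ccl5 smaller and its CD25WT excess over other cells larger.

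Ifitm2 and Ifitm3, small membrane proteins that block virus entry and respond to interferon, were found mostly in CD25KO members. Ifitm2 had 311 CPM in CD25KO members, with UMIs in 94 of them (26.6%), against 4.85 CPM and 2 CD25WT members (1.74%). Ifitm3 had 152 CPM and 47 members in CD25KO (13.3%) against 1.21 CPM and 1 member in CD25WT (0.870%). The log2 ratios were 6.0 (4.64 to 7.88) and 6.97 (4.48 to 12.3) in members against 1.86 and 1.18 in other cells, but the CD25WT counts behind them were 4 UMIs and 1 UMI. Ifitm1 had 234 against 10.9 CPM (4.42, 3.49 to 5.56), and 80.0% of its CD25KO UMIs came from 10 members. Without the member with the most UMIs of the gene in each library, Ifitm2 had a ratio of 7.85, and Ifitm1 and Ifitm3 had no CD25WT UMI left, which puts their ratios at 5.73 and 5.24 or more against 3 counts over the group. Among members with a Foxp3 UMI (55 in CD25KO and 24 in CD25WT), the ratios were 2.11 for Ifitm2, 2.39 for Ifitm3 and -2.70 for Ifitm1. All 115 CD25WT members together held 4 UMIs of Ifitm2, 1 of Ifitm3 and 9 of Ifitm1, the last in 1 cell. The CD25WT side of these ratios thus rests on at most these UMIs or on a floor of 3 counts. No change is read from them. Ifitm2 and Ifitm3 lie 11233 and 39760 bases from Ifitm1, on either side of it on chromosome 7. Of the 50-base stretches in the last 500 bases of their transcripts, 11.8% to 41.9% also occur in transcripts of other genes, so their split is uncertain. Other interferon genes differed less, with 3 of 11 measured at least 1.5-fold higher in CD25KO members and 0 lower. Among all measured genes 6.35% were that much higher and 2.91% lower.

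Ikzf2, encoding the Treg factor Helios, had 1393 CPM in CD25KO members against 403 CPM in CD25WT members (1.79, 1.63 to 1.96), and 1634 against 749 CPM in other cells (1.13). It was detected in 310 of 354 CD25KO members (87.6%, 83.7 to 90.8) and 57 of 115 CD25WT members (49.6%, 40.1 to 59.0). CD25WT members were thus below the other CD25WT cells, of which 68.9% had a UMI. Tnfrsf4, the costimulatory receptor OX40, had 217 against 55.8 CPM (1.96). In CD25KO members 5 of 9 measured identity genes were at least 1.5-fold higher with 0 lower (median 0.87), where 6.35% of all measured genes were higher and 2.91% lower. In other cells 6 of 10 were higher (median 0.77), where 8.20% of all measured genes were. Pglyrp1, a peptidoglycan recognition protein, had 281 against 57.0 CPM (2.30). Gimap7, a GTPase of lymphocytes, had 310 against 84.9 CPM (1.87, 1.51 to 2.24), and its ratio in other cells was 0.59.

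Of the IL-2 receptor chains other than Il2ra, Il2rb was at least 2-fold higher in CD25KO members and Il2rg differed little. Il2rb, the beta chain, had 239 CPM in CD25KO members against 110 CPM in CD25WT members (1.12, 0.79 to 1.45), and 196 against 181 CPM in other cells. Il2rg, the shared gamma chain, had 358 against 320 CPM in members (0.16, -0.04 to 0.36). In the last 500 bases of Il2rg transcripts, 30.2% of the 50-base stretches also occur in transcripts of another gene. In the 20-gene list of IL-2 receptor and STAT5 genes, Il2rb was the 1 of 9 measured that was at least 1.5-fold higher, and 0 were lower (median 0.16, beside 0.04 over all measured genes). That much higher were 6.35% of all measured genes, and 2.91% were lower.

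**Figure D4:**
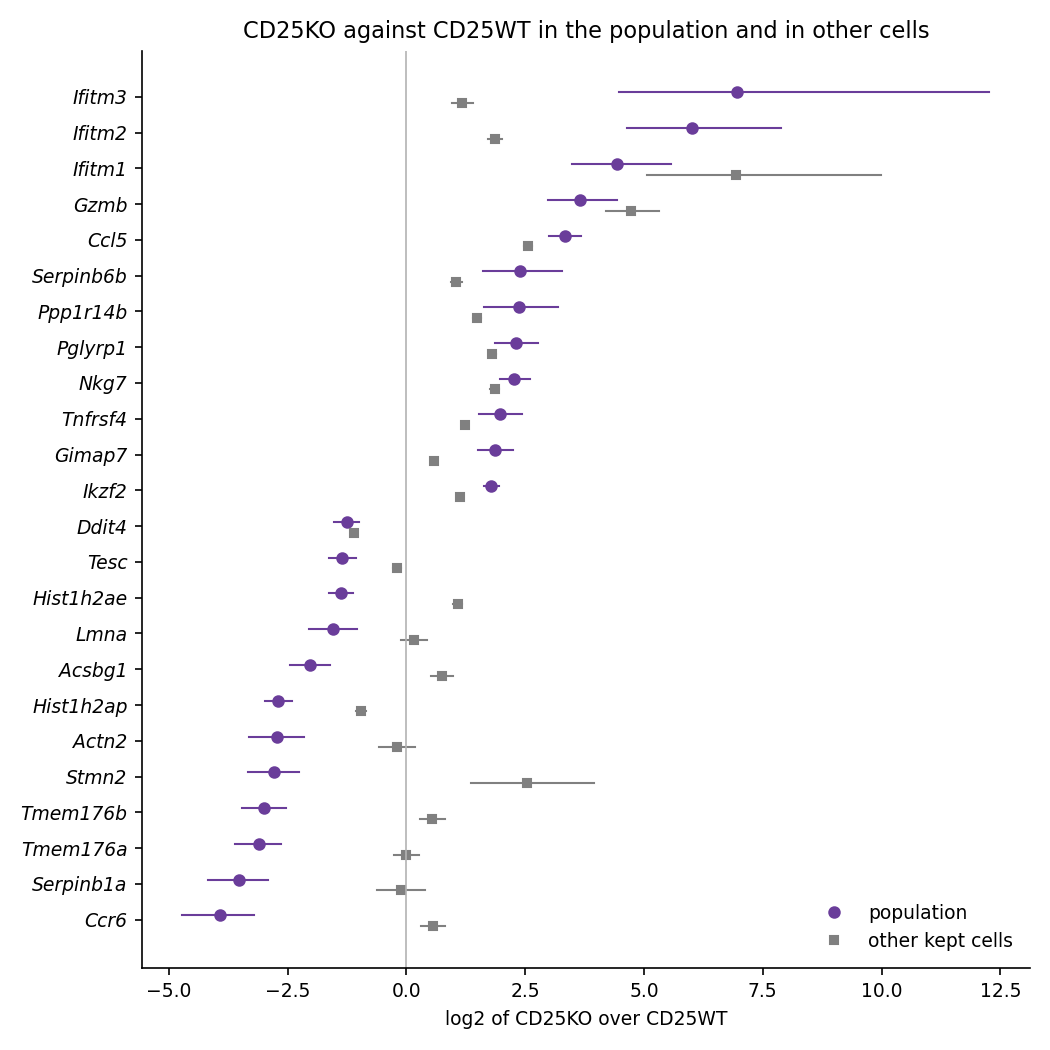
Log2 ratio of CD25KO over CD25WT (x axis) for the 24 genes named in this comparison, in the population (purple circles) and in other kept cells (grey squares), with 95% counting intervals. The ratios of Ccr6, Serpinb1a, Tmem176a, Tmem176b and Actn2 are below -2 in the population and between -1 and 1 in other cells.

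Ccr6, Tmem176a and Tmem176b, the 3 measured genes of the 8-gene Th17-type list, were at least 1.5-fold lower in CD25KO members, where 2.91% of all measured genes were. All 3 reached the mean of 50 CPM only through their CD25WT level, so that minimum favoured this count. The 250 bases before the RefSeq start of Ccr6 (chr17:8235793-8236042, GRCm38.p6, + strand) are shown, with capitals for the same motifs, because Ccr6 had the largest deficit of the 12 genes named as lower in CD25KO members.
Ccr6: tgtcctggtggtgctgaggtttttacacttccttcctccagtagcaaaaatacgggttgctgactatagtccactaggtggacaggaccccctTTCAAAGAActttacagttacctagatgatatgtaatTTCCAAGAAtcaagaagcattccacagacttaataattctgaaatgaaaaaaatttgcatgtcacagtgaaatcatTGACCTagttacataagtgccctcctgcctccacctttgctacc
This window held 2 STAT5 cores, at -157 and -120, and on the other strand the half-site at -44, with no overlap between them, whereas a second annotated start of the gene (window chr17:8242276-8242525) held none. Ccr6, the receptor for CCL20, had 7.69 CPM in CD25KO members against 117 CPM in CD25WT members, a log2 ratio of -3.92 (-4.71 to -3.20), and in other cells the ratio was 0.56. It was detected in 12 CD25KO members (3.39%, 1.76 to 5.85) and 44 CD25WT members (38.3%, 29.4 to 47.8), and at 2000 UMIs in 2.13% and 14.8%. Tmem176a and Tmem176b, neighbouring membrane protein genes whose annotated bodies overlap on opposite strands of chromosome 6, had 20.6 against 178 CPM (-3.11) and 23.1 against 183 CPM (-2.99). Serpinb1a had 11.3 against 130 CPM (-3.52, -4.17 to -2.91), and Acsbg1, an acyl-CoA synthetase, had 34.4 against 141 CPM (-2.03). In other kept cells the ratios of Ccr6, Tmem176a, Tmem176b, Serpinb1a and Acsbg1 were 0.56, 0.00, 0.55, -0.11 and 0.74.

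Other receptors and genes also differed. Cxcr3 was detected in 203 CD25KO members (57.3%, 52.0 to 62.6) and 19 CD25WT members (16.5%, 10.3 to 24.6), and had 196 against 71.6 CPM (1.46). Ccr4, a receptor of skin- and lung-homing T cells, was detected in 62 CD25KO members (17.5%) and 42 CD25WT members (36.5%), and had 33.2 against 71.6 CPM (-1.11, -1.61 to -0.60). At 2000 UMIs it was detected in 6.38% and 7.41% of members. Tesc, a calcium-binding protein gene, had 91.1 against 232 CPM (-1.35), Lmna, the nuclear lamina gene, 28.7 against 83.7 CPM (-1.54), and Ddit4, a stress-induced inhibitor of mTOR, 106 against 254 CPM (-1.26). Stmn2, a microtubule regulator, had 17.8 against 123 CPM (-2.78) but came from 13 CD25KO and 11 CD25WT members. The histone transcripts Hist1h2ap and Hist1h2ae were lower by 2.69 and 1.38 on the log2 scale, values that depended on a few deep or cycling cells and turned to 0.90 and 2.66 without the 5% of cells with the most UMIs. In the last 500 bases of their transcripts, 93.1% and 56.1% of the 50-base stretches also occur in transcripts of other genes. Il10 and Areg, the genes of interleukin-10 and amphiregulin, were detected in 12 and 15 CD25KO members (3.39% and 4.24%) and in 0 of 115 CD25WT members, which allows up to 2.61%.

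The Th17-type genes marked a subset of members. At least 1 UMI of Ccr6, Tmem176a or Tmem176b was present in 33 of 354 CD25KO members (9.32%, 6.50 to 12.8) and 59 of 115 CD25WT members (51.3%, 41.8 to 60.7), against 7.47% and 5.81% of other cells. At 2000 UMIs per cell the shares in members were 5.53% and 37.0%. In CD25WT, the 59 members with such a UMI had Serpinb1a in 54.2%, Acsbg1 in 55.9% and Cxcr6 in 69.5%, against 23.2%, 14.3% and 28.6% of the 56 members without. Helios ran opposite: Ikzf2 was detected in 30.5% of the CD25WT members with such a UMI and 69.6% of those without. Cxcr3 and Ccr10 were each detected in 5.09% of the CD25WT members with such a UMI and 28.6% of those without, and Ccr10 and Ccr6 occurred together in 2 CD25WT members and 0 CD25KO members. The members with such a UMI were the deeper ones, with medians of 6955 and 5154 UMIs, which raises every share among them. With members of this subset left out of both libraries, an alternative chosen after the data had been seen, the CD25KO over CD25WT ratio of Ikzf2 was 1.18 and that of Lmna 0.36.

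**Figure D5:**
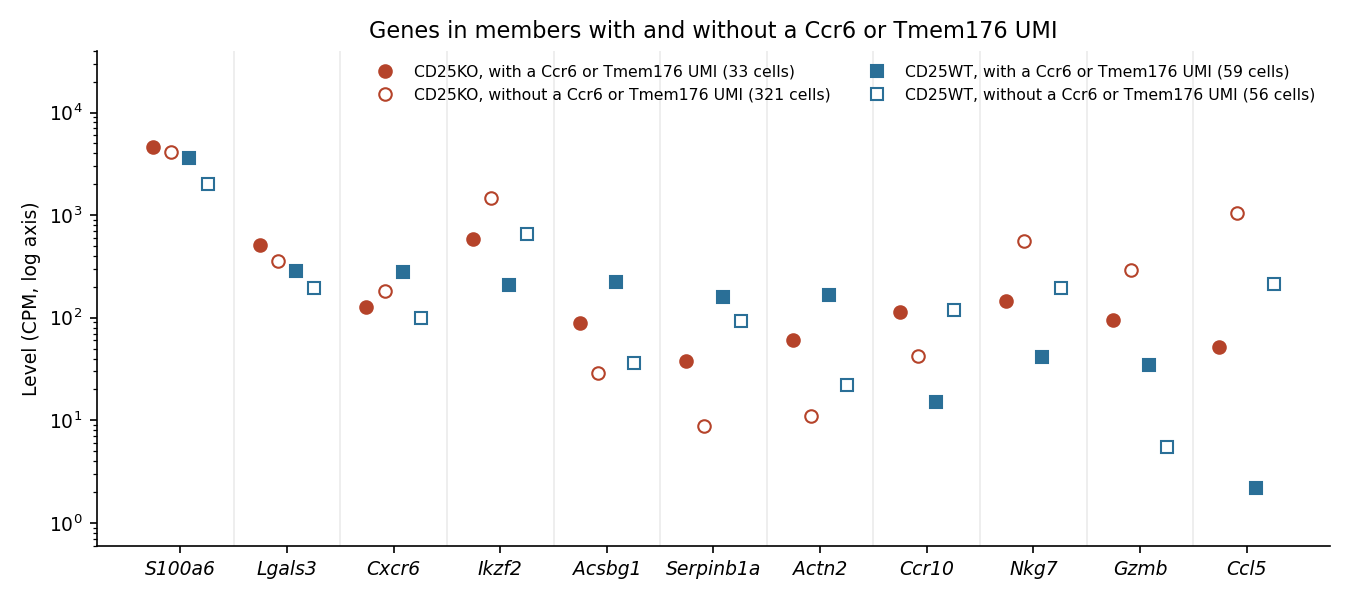
Level (CPM, log axis) of 11 genes in members with (filled) and without (open) a UMI of Ccr6, Tmem176a or Tmem176b, in CD25KO (red circles) and CD25WT (blue squares). Ikzf2, Nkg7 and Ccl5 are lower, and Acsbg1, Serpinb1a and Actn2 higher, in the members with such a UMI of both libraries.

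Members of the CD25KO library were also mixed. Ifitm UMIs (Ifitm1, Ifitm2 or Ifitm3) were present in 103 of them (29.1%), against 3.48% of CD25WT members. These 103 members had Lgals3 at 594 CPM against 261 CPM in the 251 members without, Id2 at 1028 against 538 CPM, Ikzf2 at 764 against 1711 CPM and Ccl5 at 351 against 1278 CPM, at median depths of 7233 and 5681 UMIs. The cytotoxic genes Gzmb and Nkg7 went the other way from Ccl5, at 347 against 240 CPM and 691 against 438 CPM. Ccl5 was detected in 22.3% (14.7 to 31.6) of the members with an Ifitm UMI and 31.1% (25.4 to 37.2) of those without, intervals that overlap, and the Ccl5 level of those without was 1069 CPM when the member with the most Ccl5 UMIs was left out. Of the 42 CD25KO members with Ccr10, 61.9% had Itgae, against 23.2% of all CD25KO members. In CD25WT, 42.1% of the 19 members with Ccr10 had Itgae, against 27.0% of all. Of the 203 CD25KO members with Cxcr3, 41.9% had Gzmb and 93.6% Ikzf2, against 31.6% and 87.6% of all. In CD25WT, the 19 members with Cxcr3 had Gzmb in 5.26% and Ikzf2 in 84.2%, against 7.83% and 49.6% of all. These shares were not matched for depth, and a deeper cell shows more genes. By Ccr2 level, the 236 CD25KO members with at least 2 Ccr2 UMIs had Cd7 at 253 CPM against 116 CPM in the 118 members with 1. Ccl5 was at 626 against 1797 CPM (-1.52), or against 1323 CPM without the member with the most Ccl5 UMIs. Nkg7 was also lower, at 479 against 630 CPM (-0.40), whereas Gzmb was higher, at 314 against 184 CPM (0.77).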

How the data were processed

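The deposited files are UMI count matrices of 2 droplet libraries (10x Genomics 3′ single-cell RNA-seq), 1 per genotype, with 32285 genes. Their values are whole UMI counts, written by Cell Ranger 6.0.0 according to the deposited headers, with reads aligned to mm10, per the submitters' processing notes. The sources used here do not name the gene annotation behind the counts. Per-cell filters and the rule for members are given above, and 107 barcodes occur in both libraries.

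UMIs were summed per gene over members and over comparison cells of a library and scaled to 1000000 over all genes. The sums were set against each other as a log2 ratio with an exact conditional 95% interval, whose coverage was checked on simulated counts. The interval covers counting error only. It does not take in UMIs clumped in few cells, as for Ccl5, with 57 of 79 CD25WT member UMIs in 1 cell. For such genes that check does not show the coverage. Genes entered at a mean of at least 50 CPM. A gene below that level in 1 group could enter only through the other group, which favoured its place in the counts. Calls were 2-fold and list counts 1.5-fold, with no test at 1 library per group. A ratio whose group had no UMI was taken against a floor of 3 counts. Named genes were the 15 in each direction by the interval bound nearest 0 in the weaker library, the 12 in each direction between genotypes, the proposed markers, the IL-2 receptor chains and up to 4 of each list of 29, without genes of the rule, receptor segments, ribosomal, mitochondrial and haemoglobin genes and unnamed models. The members and lists were chosen with earlier results of these data known.

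Scrublet in scanpy 1.11.5 called 0 CD25KO and 3 CD25WT doublets (0% and 0.0491%) and so did not work here; cells of high score at the expected rates of 6.02% and 5.30% were left out as an alternative, among them 22 CD25KO and 2 CD25WT members. Positions came from GENCODE (GRCm38), with 333 of 333 gene IDs matched, and promoters from RefSeq (GRCm38.p6). Python 3.11.15, numpy 2.4.6, scipy 1.17.1, pandas 2.3.3 and R 4.3.3 with edgeR 4.0.16 (TMM factors alone) were used.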

Additional observations from a re-analysis of the deposited data

Results flagged for a closer look

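The population differed from the other kept cells in opposite directions in the libraries for 3 named genes, whose counting intervals excluded 0 on both sides. Gimap7, a GTPase gene of lymphocytes, had a log2 ratio of population over other kept cells of 0.17 in CD25KO and -1.11 in CD25WT. Il2rb, the IL-2 receptor beta chain, had 0.29 in CD25KO and -0.71 in CD25WT. Sh2d1a, the adaptor SAP of follicular help, had -0.41 in CD25KO and 0.33 in CD25WT. With 1 library per genotype the difference was not tested for any of them.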

How the results depend on the processing

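With 1 library per genotype no library could be left out. No paired analysis was possible because each group has 1 sample and the result comes from no test. The ratio of shares, 2.70, stayed between 2.57 and 3.20 under the other settings and was 3.83 with at least 1000 genes and at most 5% mitochondrial UMIs, where the CD25KO share was 7.30%. The shares in CD25KO and CD25WT were 3.60% and 1.36% at 2000 UMIs per cell, 3.42% and 1.31% with at least 2 Ccr2 UMIs, 7.35% and 2.45% with no criterion on Il1rl1 and Sostdc1, 4.46% and 1.52% without cycling cells, and 7.98% and 2.49% among cells with a Foxp3 UMI.

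Counts of 2-fold genes followed the expression minimum. For population over other cells, higher and lower counts were 139 and 105 in CD25KO and 337 and 120 in CD25WT at 20 CPM, 53 and 17 and 81 and 24 at 100 CPM, and 5662 and 1210 and 7673 and 854 with no minimum. Between genotypes they were 142 and 75 at 20 CPM, 23 and 10 at 100 CPM, and 948 and 2809 with no minimum. At 2000 UMIs they were 264 and 76 for CD25WT members over other cells and 113 and 73 between genotypes. Among cells with a Foxp3 UMI, 50 were higher in CD25KO members than in other cells, and 149 and 84 differed between genotypes. Without ribosomal protein and mitochondrial genes in the total, the lower counts were 83 in CD25KO, 128 in CD25WT and 53 between genotypes. A lower minimum admits more genes and a higher one fewer. With no minimum, a gene without UMIs in 1 group takes the floor of 3 counts there, which can exceed the other group's level. The counts with no minimum therefore do not show a direction. For the other settings the cause was not tested.

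Of 2997 alternative values of 158 named ratios past 2-fold, 22 changed sign, in 12 ratios. With at least 1000 genes, Ccl5 and Top2a in CD25WT members over other cells were -0.93 and -0.24, and Hist1h2ae between genotypes was 0.53. At 2000 UMIs, Hist1h2ap was -0.60 in CD25WT members over other cells and 0.92 between genotypes, where Hist1h2ae was 1.27. Without the 5% deepest cells, Hist1h2ae, Hist1h2ap and Top2a were -1.30, -0.57 and -1.05 in CD25WT members over other cells, Hist1h2ae and Hist1h2ap were 2.66 and 0.90 between genotypes, and the cell cycle median was -0.16 in CD25WT. Without cycling cells, that median was -0.023 in CD25KO and -0.25 in CD25WT, Hist1h2ae and Hist1h2ap were -0.68 and -0.18 in CD25WT members over other cells, and Hist1h2ae was 0.47 between genotypes. With a Foxp3 UMI, CD25KO members over other cells had Hba-a2 at 0.18, Hbb-bt at 0.30, Ifitm1 at -0.32 and Lag3 at 0.13. CD25WT members over other cells then had Ccl5 at -0.76, and Ifitm1 between genotypes was -2.70. Among all CD25WT members the 9 Ifitm1 UMIs were in 1 cell. Without the member with the most Ccl5 UMIs, Ccl5 was -0.39 in CD25WT members over other cells. The follicular median in CD25WT was 0.33 at 100 CPM, and Lmna between genotypes was 0.36 without members that had a Ccr6, Tmem176a or Tmem176b UMI. The B cell and plasma cell median between genotypes was -0.17 with no minimum, where genes without UMIs took the floor of 3 counts.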

Other observations

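Among gene models without a descriptive name, which the naming rule left out, 1500009L16Rik stood beside Lgals3 and was picked after its values had been seen. It had 125 CPM in CD25KO members against 14 CPM in other CD25KO cells, a log2 ratio of 3.16 (2.94 to 3.37), and 117 against 2.16 CPM in CD25WT (5.75, 5.30 to 6.21). Between genotypes it differed in members by 0.10 (-0.23 to 0.45) on the log2 scale. Anxa1, the annexin whose level lay below the 50 CPM minimum, had 14.6 CPM in CD25KO members against 1.79 CPM in other cells and 78.9 against 1.20 CPM in CD25WT.

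Glycolysis genes differed little between members of the libraries: 0 of 9 measured were at least 1.5-fold higher or lower. Of all measured genes 6.35% were higher and 2.91% lower, so 0 of 9 does not set glycolysis genes apart. Against other cells of the same library, 2 of 9 were higher in CD25KO members (Eno1 and Ldha) and 4 of 8 in CD25WT members. There 8.82% and 19.4% of all measured genes were higher. Early response genes of the antigen receptor were not higher in members than in other cells. CD25KO members had 0 of 7 measured genes at least 1.5-fold higher and 2 lower (Egr1 and Dusp2), and CD25WT members had 0 of 6 higher and 1 lower (Dusp2). With 8.82% and 19.4% of all measured genes higher, 0 of so few genes does not set this list apart. The TNF receptor family list had 6 measured genes: in CD25KO members 4 lay at least 1.5-fold below other cells and 0 above, in CD25WT members 3 below and 1 above (Tnfrsf25), where 4.65% and 5.06% of all measured genes were lower. Tnfrsf4, Cd27 and Tnfsf8 were lower in both.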
